A study of Mus musculus with 6 samples.

Results

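The 10 genes followed here bring fatty acids into the cell, carry them, activate them or store them, and were measured in left ventricular cardiomyocytes (CMs) around birth. They were Fabp3, Fabp4, Fabp5, Cd36, Slc27a1, Lpl, Acsl1, Acsl3, Acsl4 and Dgat2, chosen by symbol, and all 10 of 10 were found among the 18117 genes with at least 1 molecule in CMs of any library (27998 genes in the count tables). CMs came from C57BL/6J mice at embryonic day 16.5 (E16.5) and at postnatal days 1 and 5 (P1 and P5), for which no engineered allele or treatment was given, with litters of each age from different breeding pairs. Dissociated ventricular cells were fixed in methanol, stained with an antibody to the sarcomere myosin MYH1 and with the DNA dye Hoechst, and sorted as diploid (2n) or tetraploid (4n) CMs, which gave 6 libraries named by age and ploidy, such as E16.5-2n. Each condition was 1 library of cells pooled from 3 sorts of 1 litter each, so that differences between litters cannot be told apart from differences between ages, and no test between conditions was run. A sort by DNA content cannot tell a tetraploid CM from a CM and a second diploid cell that passed as 1 event, and the counts do not separate these either. It also places CMs that have copied their DNA but not yet divided among the 4n CMs. The study assigned many 4n CMs to the G2 or M phase of the cell cycle. Differences between 4n and 2n CMs thus cannot be told apart from differences in cell cycle phase. Cells were filtered and gated on scatter before the sort. The study reports few clumps by microscopy, in a passage on sorted CMs of P5.

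The fetal heart burns mainly carbohydrate, and after birth the CM takes up fatty acids from milk lipids as its main fuel. Lipoprotein lipase, made by the CM and moved to the capillary wall, frees fatty acids from circulating lipoproteins. CD36 and fatty acid transport proteins bring them across the endothelium and the CM membrane, fatty acid binding proteins (FABPs) carry them through the cytosol, and acyl-CoA synthetases trap them as acyl-CoA for oxidation or, with DGAT enzymes, for storage as triglyceride.

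Levels are unique molecular identifiers (UMIs, 1 per captured RNA molecule) of a gene summed over CMs, per 1000000 UMIs of CMs (CPM). CMs were cells with at least 1 UMI of each of Tnni3, Tnnt2, Tnnc1 and Actc1. They made up 97.8 to 99.4% of the cells, 3654 to 7340 per library, with a median of 1831 (P1-2n) to 4658 UMIs (P5-4n) per CM. Shares of CMs with a UMI of 1 of the 10 genes were taken after each CM had been thinned to 1000 UMIs, unless given as unthinned. Intervals are at the 95% level (exact Poisson for CPM, Clopper-Pearson for shares, the exact binomial split for ratios) and cover counting error only, not the spread between animals. The 6 values of a series below run through 2n and then 4n CMs at E16.5, then at P1, then at P5. Markers of other cells were also present. CMs with at least 2 of 16 endothelial genes made up 1.26, 10.1, 1.47, 16, 4.15 and 8.02% of CMs, those with at least 2 of 8 fibroblast genes 1.93, 18.6, 2.28, 27.6, 6.25 and 11.4%, and those with at least 2 of 6 erythroid genes 42 (P1-2n) to 84.1% (E16.5-4n). Classes of CMs by such markers were set before thinning unless 1000 UMIs are named, and their shares depend on depth. At 1000 UMIs these shares were 0.56, 5, 0.497, 4.76, 1.34 and 2.52% (endothelial) and 1.07, 13.2, 1.43, 16, 2.44 and 4.95% (fibroblast). Those of erythroid genes were then 18.7 (P5-4n) to 58.9% (E16.5-4n). Of 6 adipocyte genes, Cidec, Lep and Cfd had no UMI in any library, and the 6 together had 0 to 7 UMIs per library. Each library shared 2.91 to 3.52% of its cell barcodes with another.

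Together the 10 genes held 0.213 (2n) and 0.203% (4n) of the UMIs at E16.5, then 0.774 and 0.768% at P1, then 0.859 and 0.809% at P5. Fabp3 alone held more UMIs than the rest of the 10 together in every library. With Fabp3 left out, the sum was 815, 938, 1919, 2297, 2011 and 1959 CPM. From P1 to P5 this smaller sum was thus slightly higher in 2n CMs but lower in 4n CMs. Of the genes in it, only Fabp4 (log2 ratio 0.77 in 2n and -0.59 in 4n CMs) and Fabp5 (0.50 and -1.39) went these opposite ways. Both ran high in CMs with endothelial RNA, as given below. From E16.5 to P1, 7 of the 10 genes were at least 2-fold higher in 2n CMs and 7 in 4n CMs, and in both ploidies these were Fabp3, Fabp4, Cd36, Slc27a1, Lpl, Acsl1 and Dgat2. Among all genes with at least 100 UMIs in the 2 libraries together, 1.98% were at least 2-fold higher in 2n CMs and 2.88% in 4n CMs. Fabp5 in 2n CMs was the only gene of the 10 at least 2-fold lower (12.1% of all genes in 2n CMs and 11.6% in 4n CMs). The median log2 ratio of the 10 genes was 1.48 in 2n and 1.75 in 4n CMs, against -0.34 and -0.30 for all genes. Scaling by the median of ratios brought the latter to 0.01 and 0.03, so that relative to the typical gene the higher genes differed by more, and the lower ones by less, than given here. The plot of levels by age and the plot of log2 ratios show these differences gene by gene.

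**Figure D1:**
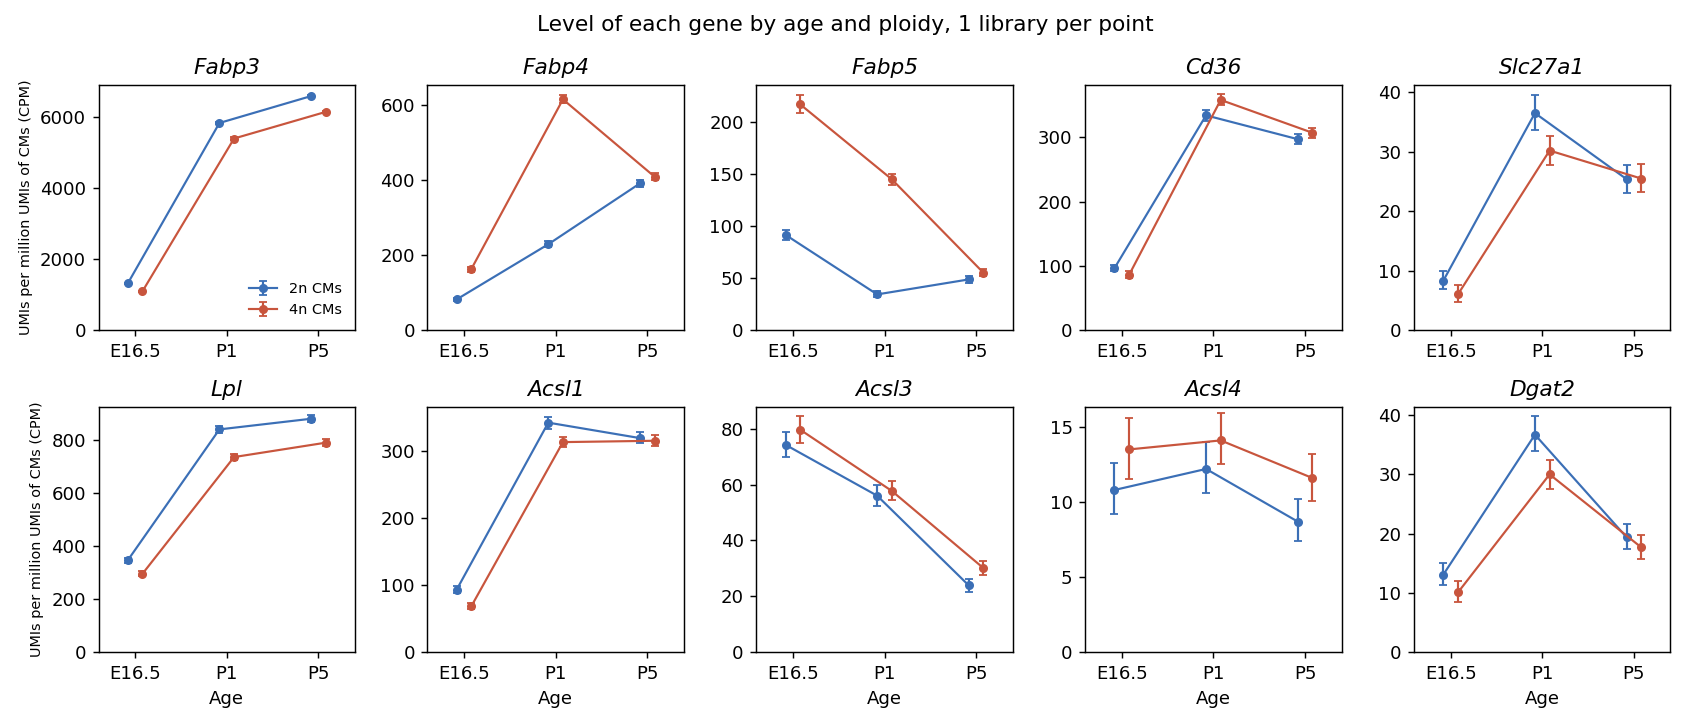
CPM of each gene (y axes, linear, from 0) at E16.5, P1 and P5 in 2n CMs (blue) and 4n CMs (red), with 1 library per point and bars for the exact Poisson interval of the count. Fabp3, Cd36, Slc27a1, Lpl, Acsl1 and Dgat2 stepped up between E16.5 and P1 in both ploidies, Acsl3 stepped down at each age, and Fabp4 and Fabp5 lay apart by ploidy at E16.5 and P1.

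Fabp3 encodes the FABP of heart and skeletal muscle (GRCm38 chr4:130308595-130315463, plus strand). Its level in 2n and 4n CMs was 1316 and 1093 CPM at E16.5, then 5820 and 5384 at P1, then 6575 and 6131 at P5. Both E16.5 libraries were low and the 4 later ones high, with no overlap. P1 over E16.5 was 2.15 on the log2 scale in 2n CMs (2.12 to 2.17) and 2.30 in 4n CMs (2.27 to 2.33), and P5 over P1 was only 0.18 and 0.19.

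The step in Fabp3 was spread over the whole population of CMs. At 1000 UMIs per CM, the median CM held 1 Fabp3 UMI at E16.5, 5 at P1 and 6 at P5 in both ploidies. Of E16.5-2n CMs 0.361% (0.221 to 0.557%) lay above the P1-2n median, whereas 94% (93.4 to 94.6%) of P1-2n CMs lay above the E16.5-2n median. For 4n CMs these shares were 0.288% and 91.8%. The 10% of CMs with most Fabp3 UMIs held 28.3 (2n) and 32.1% (4n) of them at E16.5 and 19.1 to 21.1% after birth. This share depends on the mean count, which was 1.32 and 1.1 UMIs per CM at E16.5 and 5.15 to 6.34 later. The variance of UMIs per CM over their mean was 1.1 and 1.16 at E16.5 and 1.47 to 1.62 after birth. Unthinned, 87.1 to 90.3% of CMs at E16.5 and 99.3 to 99.8% later had a Fabp3 UMI. At 1000 UMIs the shares of CMs with a UMI were 71.3, 64.1, 98.5, 97.7, 98.9 and 98.4%. In cells without all 4 CM markers, a mixed class of 911 to 1440 UMIs at the median, they were 32.6, 38.5, 96, 83.3, 67.5 and 54.2%, and Fabp3 was at 522 to 3336 CPM, below the CMs of the same library in all 6.

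**Figure D2:**
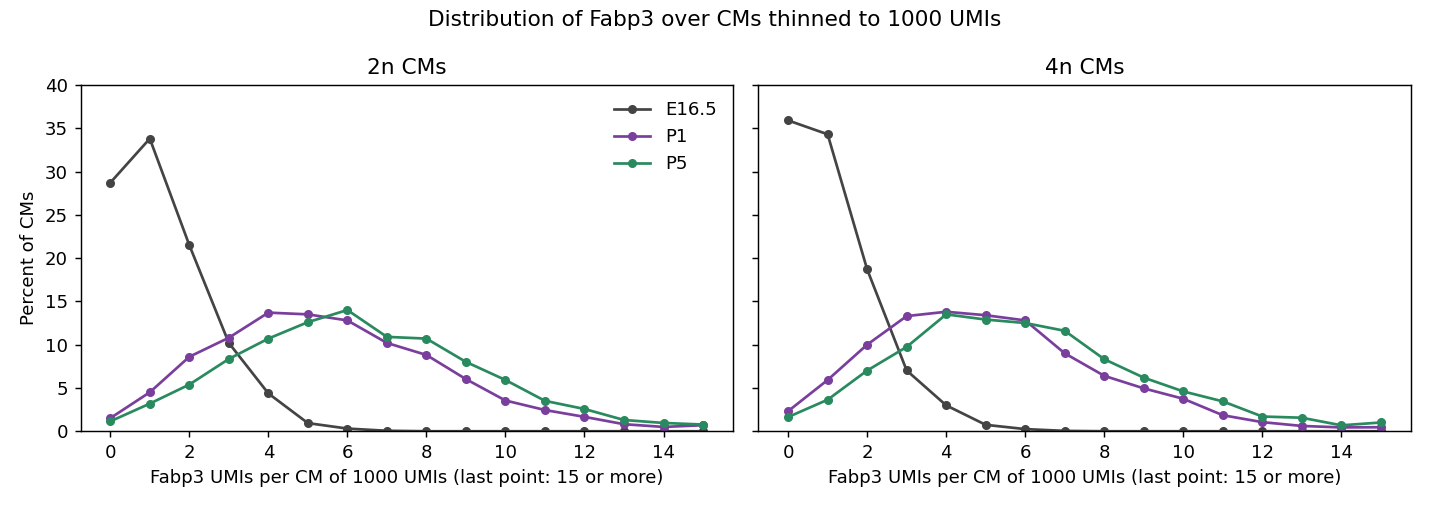
Percent of CMs (y axis) by the number of Fabp3 UMIs per CM after thinning to 1000 UMIs (x axis, 15 standing for 15 or more) in 2n CMs (left) and 4n CMs (right) at E16.5 (grey), P1 (purple) and P5 (green). The E16.5 curves fall from 0 or 1 UMI to near 0% by 6 UMIs, and the P1 and P5 curves are single broad peaks around 4 to 6 UMIs.

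Fabp3 has a processed pseudogene, Fabp3-ps1 (GRCm38 chr10:86731987-86732388, minus strand), that the count tables list as a gene of its own. Its 402 bases matched the Fabp3 transcript at 399 positions (99.3%), so that reads from Fabp3 could be counted there. Fabp3-ps1 held 119, 91.9, 510.3, 494, 468 and 591 CPM and showed the same step (2.10 in 2n and 2.43 in 4n CMs). With the UMIs of both summed, P1 over E16.5 was 2.14 in 2n and 2.31 in 4n CMs.

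Lpl encodes lipoprotein lipase (GRCm38 chr8:68880491-68907448, plus strand). It held 346 and 295 CPM in 2n and 4n CMs at E16.5, then 838 and 734 at P1, then 878 and 788 at P5. Its step was the smallest of the 7 genes, 1.28 (1.23 to 1.32) in 2n and 1.32 (1.26 to 1.37) in 4n CMs, and P5 over P1 was 0.07 and 0.10. CMs with an Lpl UMI went from 29 and 25.1% at E16.5 to 54.2 and 50.4% at P1 (2n and 4n).

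Cd36, the membrane scavenger receptor that takes up long-chain fatty acids (GRCm38 chr5:17781690-17888801, minus strand), held 96.4, 86.1, 334, 358, 297 and 307 CPM. P1 was 1.79 above E16.5 in 2n CMs (1.71 to 1.88) and 2.06 in 4n CMs (1.97 to 2.15). The share of CMs with a Cd36 UMI went from 8.8 to 28.3% in 2n and from 8.4 to 30.3% in 4n CMs, and was 6.73 to 45% in cells without all 4 CM markers. Slc27a1 encodes fatty acid transport protein 1 (GRCm38 chr8:71568882-71587302, plus strand) and was a gene of low count, at 8.34, 6.04, 36.5, 30.2, 25.4 and 25.5 CPM. Its ratio at P1 was 2.13 in 2n (1.85 to 2.42) and 2.32 in 4n CMs (1.98 to 2.68), as large as that of Fabp3, and its level at P5 was below that at P1 by 0.52 in 2n CMs (log2 -0.52, -0.70 to -0.35).

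The acyl-CoA synthetases went different ways. Acsl1, the main heart enzyme, which serves oxidation (GRCm38 chr8:46471037-46536051, plus strand), held 93.3, 68.6, 342, 313, 319 and 315 CPM, a ratio of 1.87 at P1 in 2n (1.79 to 1.96) and 2.19 in 4n CMs (2.09 to 2.30), and stayed within 0.10 of the P1 level at P5. Acsl3, an enzyme of the endoplasmic reticulum and lipid droplets (GRCm38 chr1:78657825-78707743, plus strand), held 74.2, 79.6, 56, 57.7, 23.9 and 30.1 CPM. Its P1 level was close to the median of all genes relative to E16.5 (-0.41 and -0.46), and P5 over P1 was -1.23 in 2n (-1.40 to -1.06) and -0.94 in 4n CMs (-1.09 to -0.79). Acsl4, which prefers arachidonic acid (GRCm38 chrX:142317993-142390535, minus strand), was low in all 6 libraries (8.7 to 14.1 CPM). Its P1 over E16.5 intervals held 0 in both ploidies (-0.13 to 0.49 and -0.21 to 0.35).

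Dgat2, which makes triglyceride from diacylglycerol and acyl-CoA (GRCm38 chr7:99153658-99182719, minus strand), held 13.1, 10.1, 36.7, 30, 19.4 and 17.7 CPM. Its P1 over E16.5 ratios were 1.49 in 2n and 1.57 in 4n CMs. Its P5 over P1 ratios, -0.92 (-1.11 to -0.73) and -0.76 (-0.96 to -0.56), were the lowest among the 7 genes in both ploidies, which left it 0.57 and 0.81 above E16.5 at P5. From P1 to P5 none of the 10 genes was at least 2-fold higher in either ploidy (background 3.02% of all genes in 2n and 2.4% in 4n CMs). Of the 10, 1 was at least 2-fold lower in 2n CMs, Acsl3, and 1 in 4n CMs, Fabp5 (background 1.98% and 5.85%). The ratio of Fabp5 in 4n CMs was -1.39, and -0.88 in CMs with no detected endothelial gene, where it was no longer past 2-fold and Acsl3 was (-1.01).

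**Figure D3:**
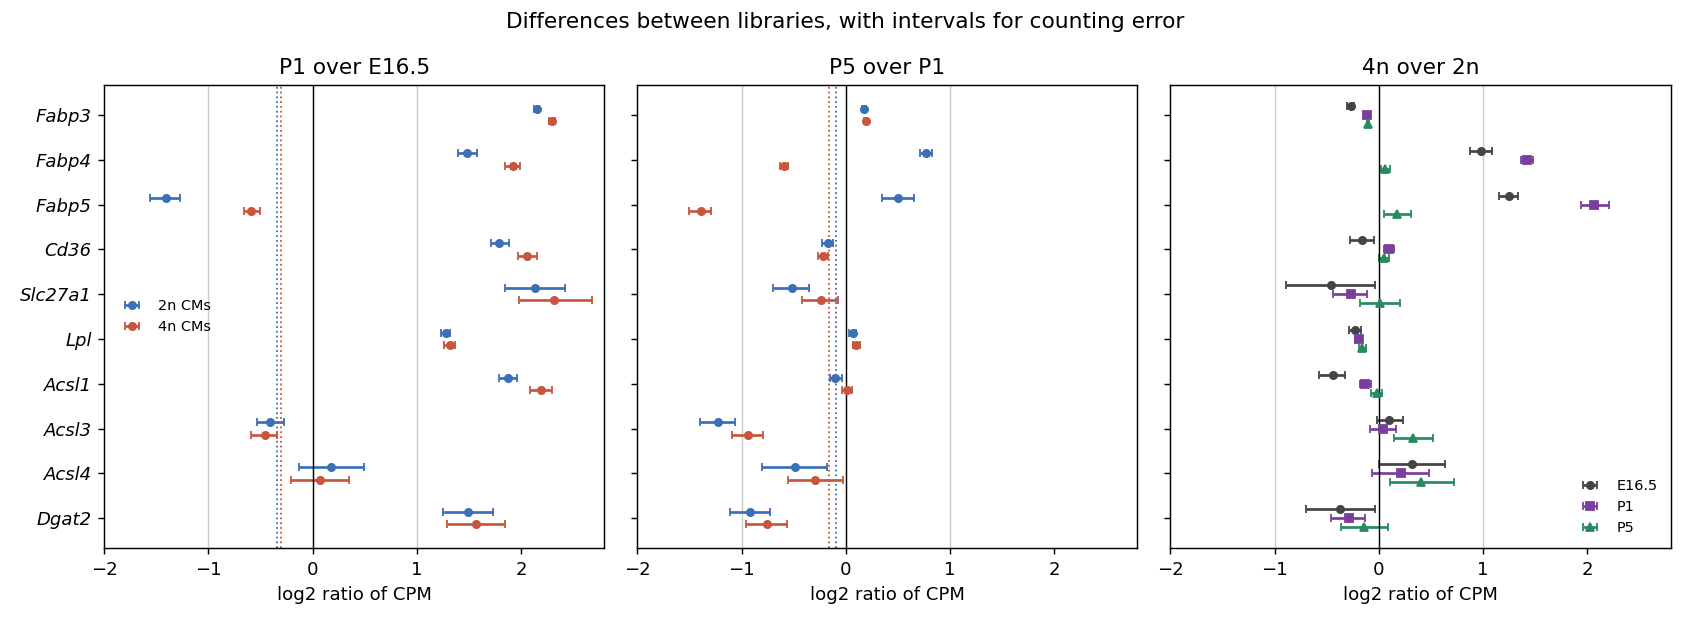
Log2 ratio of CPM (x axes) for each gene (rows) between P1 and E16.5 (left) and P5 and P1 (middle) in 2n (blue) and 4n CMs (red), and between 4n and 2n CMs (right) at E16.5 (circles), P1 (squares) and P5 (triangles). Bars are the exact binomial split interval of the UMIs, grey lines mark a 2-fold difference, and dotted lines the median of all genes (-0.34 and -0.30 at left). The same 7 genes lie beyond the right grey line at left, and Fabp4 and Fabp5 stand apart at right.

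RefSeq promoter windows of GRCm38.p6 were given for 6 of the 10 genes (9 windows), and the 250 bases before the RefSeq start are shown for 4 genes whose levels stepped up together, since these are the stretches where shared motifs would be looked for. RefSeq and GENCODE starts can differ: the Cd36 window lies inside the GENCODE gene given above, and the Fabp3 window runs past its GENCODE start. Where a gene had several windows, the most upstream one is shown. Capitals mark AGGTCA, the core site bound by nuclear receptors such as PPARs, on either strand. Windows lie at chr4:130308488-130308737 (Fabp3, plus strand), chr5:17835897-17836146 (Cd36, minus strand), chr8:71568621-71568870 (Slc27a1, plus strand) and chr8:46470787-46471036 (Acsl1, plus strand).
Fabp3: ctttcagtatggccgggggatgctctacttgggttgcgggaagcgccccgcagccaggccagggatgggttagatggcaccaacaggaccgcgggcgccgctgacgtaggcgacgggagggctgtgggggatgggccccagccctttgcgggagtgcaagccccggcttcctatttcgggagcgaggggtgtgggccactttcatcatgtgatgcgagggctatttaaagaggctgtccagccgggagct
Cd36: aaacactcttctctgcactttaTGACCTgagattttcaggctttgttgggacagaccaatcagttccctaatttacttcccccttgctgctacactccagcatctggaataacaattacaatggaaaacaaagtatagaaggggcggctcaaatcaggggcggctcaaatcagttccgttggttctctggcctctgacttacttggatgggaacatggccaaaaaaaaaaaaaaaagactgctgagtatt
Slc27a1: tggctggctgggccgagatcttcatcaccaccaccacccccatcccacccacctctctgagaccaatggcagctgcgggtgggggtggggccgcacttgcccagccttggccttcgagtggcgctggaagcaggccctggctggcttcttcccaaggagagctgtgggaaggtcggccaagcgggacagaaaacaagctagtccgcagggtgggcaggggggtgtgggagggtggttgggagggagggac
Acsl1: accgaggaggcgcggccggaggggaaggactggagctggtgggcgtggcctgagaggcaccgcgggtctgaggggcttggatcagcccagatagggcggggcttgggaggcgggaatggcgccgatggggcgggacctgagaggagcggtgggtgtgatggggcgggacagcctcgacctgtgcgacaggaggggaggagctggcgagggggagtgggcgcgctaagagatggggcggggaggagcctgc

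AGGTCA occurred in 1 of the 9 windows, that of Cd36, with its first base 228 bases before the start, and in 14% of all 32851 windows of this length. Copies of AGGTCA in tandem with 1 base between them, the element of PPAR with RXR, occurred in 0 of the 9 windows and in 0.0335% of all windows, and TATAAA in 0 of the 9 and in 12.4%. The letters were searched in the last 250 bases only, and a match or its absence is a description of these windows.

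Fabp4 encodes the FABP of adipocytes and capillary endothelium (GRCm38 chr3:10204088-10208576, minus strand), and Fabp5 a FABP of skin, endothelium and macrophages (GRCm38 chr3:10012548-10016607, plus strand). Fabp4 held 82.1 and 163 CPM in 2n and 4n CMs at E16.5, then 229 and 615 at P1, then 391 and 409 at P5. Fabp5 held 91.6 and 217, 34.4 and 145, and 48.8 and 55.2 CPM at these ages. The 4n libraries were the higher ones for both genes at E16.5 and P1, and the ploidies were near each other at P5.

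At E16.5, Fabp5 was 1.25 higher on the log2 scale in 4n than in 2n CMs (1.15 to 1.34) and the only gene of the 10 past 2-fold (4.64% of all genes were at least 2-fold higher and 0.0208% lower). Fabp4, at 0.98 (0.88 to 1.09), lay just inside 2-fold. At P1, Fabp4 was 1.42 (1.37 to 1.48) and Fabp5 2.07 (1.94 to 2.21) higher in 4n CMs, 2 of the 10 genes (5.23% of all genes higher, 0% lower). At P5 none of the 10 was past 2-fold (1.87% higher, 0.406% lower), with 0.06 for Fabp4 and 0.18 for Fabp5. Fabp3, Lpl, Slc27a1 and Dgat2 were lower in 4n CMs at E16.5 and P1 by at most 0.46 on the log2 scale (Slc27a1 at E16.5, -0.46, which was -2.48 in the few CMs with under 2 genes of each of 5 panels of other cells), and Acsl1 by 0.44 and 0.13 (log2 -0.44 and -0.13).

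Fabp4 and Fabp5 were the genes of the 10 that ran high in CMs with endothelial RNA in all 6 libraries. CMs with a UMI of Kdr (VEGF receptor 2) or Cdh5 (VE-cadherin) made up 1.3, 5.61, 1.99, 12.1, 5.94 and 8.89% of CMs, and had more UMIs than the other CMs of their library (medians 2530 to 5042 against 1823 to 4621). Against the other CMs of the same library, Fabp4 was higher in them by 3.54, 3.67, 3.92, 2.59, 3.48 and 2.99 on the log2 scale, and Fabp5 by 3.01, 2.21, 3.40, 1.83, 3.20 and 2.39. These CMs held 2.29 to 18.4% of all UMIs, but 21.5 to 57.7% of the Fabp4 UMIs and 15.9 to 44.5% of the Fabp5 UMIs. Cd36 was higher in them in 5 of 6 libraries, by 0.36 to 0.63, with 0.08 (-0.46 to 0.57) in E16.5-2n. With every CM thinned to 1000 UMIs, the value of Cd36 in E16.5-4n was 0.03 in place of 0.63, and in the other 5 libraries 0.24 to 0.71.

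At full depth, the other genes were near or below the CM markers' own difference, or had wide intervals. Fabp3 differed by -0.27 to -0.08 and Lpl by -0.42 to -0.07, near the 4 summed CM markers (-0.32 to -0.15) in the same CMs. Acsl1 lay between -0.26 and 0.00. The intervals of Slc27a1 and Dgat2 held 0 in all 6 libraries, as did those of Acsl4 in all but P1-2n (1.40, 0.53 to 2.16) and of Acsl3 in all but E16.5-4n (-0.50, -0.90 to -0.12) and P1-4n (-0.27, -0.51 to -0.04). In E16.5-2n, where 74 CMs had a UMI of Kdr or Cdh5, the intervals of Slc27a1, Acsl4 and Dgat2 spanned more than 2-fold either way, so that such differences were not detectable at this depth.

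**Figure D4:**
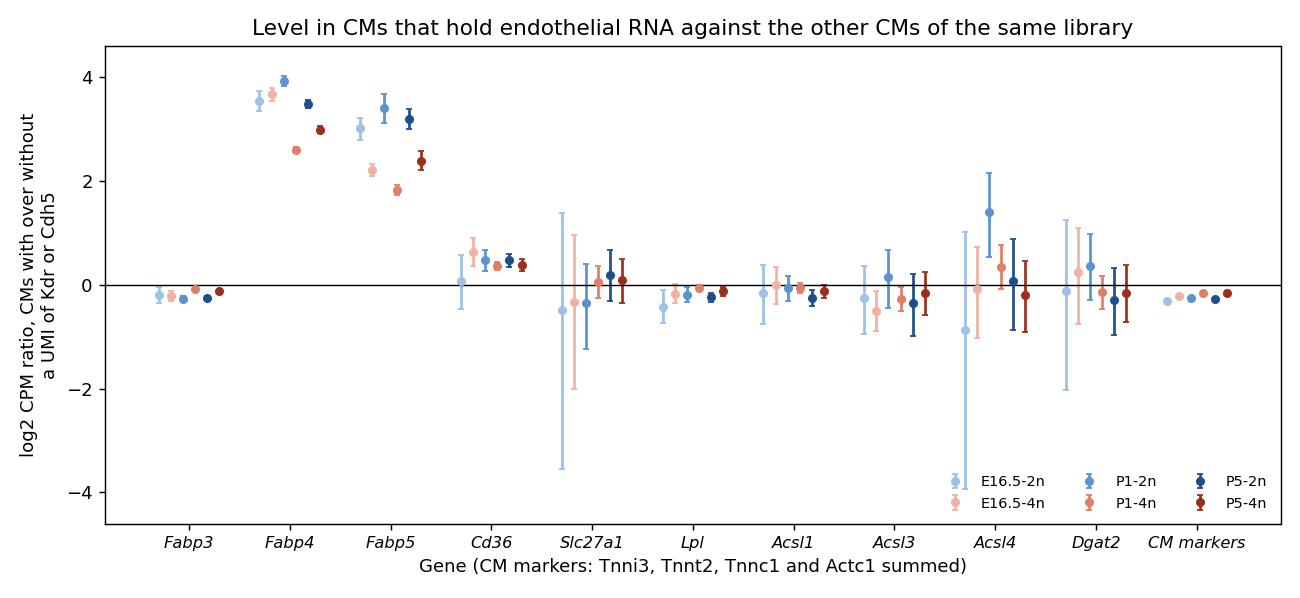
Log2 ratio of CPM (y axis) between CMs with and without a UMI of Kdr or Cdh5 for each gene and for the 4 summed CM markers (x axis), 1 point per library (colours) with the exact binomial split interval. Fabp4 and Fabp5 lie between 1.83 and 3.92 in all 6 libraries, Cd36 lies at 0.08 to 0.63, and Fabp3, Lpl, Acsl1 and the CM markers lie at or below 0.

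The level of Fabp4 followed the number of endothelial genes detected in a CM at 1000 UMIs. In P1-2n it was 171 CPM with 0 of the 16 genes, 623 with 1, 2571 with 2 and 8474 (7215 to 9888) with 3 or more, where Fabp3 was 5624, 5095, 4500 and 2789 CPM. In P5-4n Fabp4 was 264, 1245, 4061 and 8163 CPM and Fabp3 5990, 5868, 4327 and 4116 CPM over the same steps. Fabp5 went from 26 to 1579 CPM in P1-2n and from 128 to 1496 CPM in E16.5-4n. CMs with 3 or more genes were few, 13 to 131 per library.

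At E16.5 and P1, the difference between ploidies in Fabp4 and Fabp5 was smaller in CMs with no detected endothelial gene, and at P5 it was small in all CMs and in these. CMs with no detected gene of the endothelial panel, 68 (P1-4n) to 93.3% (2n at E16.5 and P1) of CMs, held Fabp4 at 59.8, 62.4, 145, 218, 194 and 179 CPM. In these CMs, 4n over 2n for Fabp4 was 0.06 (-0.09 to 0.22) at E16.5, 0.59 (0.50 to 0.67) at P1 and -0.12 (-0.20 to -0.04) at P5, and for Fabp5 0.52 (0.39 to 0.65), 1.19 (1.00 to 1.39) and 0.29 (0.07 to 0.50). Fabp4 was still higher at P1 than at E16.5 in them, by 1.28 (1.16 to 1.40) in 2n and 1.81 (1.68 to 1.94) in 4n CMs. For Fabp3 the P1 over E16.5 ratios were 2.14 and 2.30 and for Cd36 1.78 and 2.02, close to those in all CMs. The panel was searched at full depth, so that this class was stricter in libraries with more UMIs per CM. With it searched at 1000 UMIs, CMs with 0 of its genes held Fabp4 at 69.9, 79.7, 171, 368, 241 and 264 CPM. Fabp5 was then at 76.1, 128, 26, 80, 29.8 and 37.2 CPM. At E16.5 and P1, 4n CMs then lay further above 2n CMs in both genes than with the search at full depth.

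UMIs of genes outside the panel remained in CMs with no detected endothelial gene. Aqp1, Gpihbp1 and Cav1, which the panel does not hold and which were looked at after the values of Fabp4 had been seen, had 21.6, 36.7 and 19.5% of their UMIs in them in P5-2n, against 40.1% for Fabp4 and 80.9% of all UMIs. In P1-4n the shares were 20.7, 18.6 and 13.4%, against 20.8% for Fabp4, 21.3% for Fabp5 and 58.5% of all UMIs. The source of the Aqp1, Gpihbp1 and Cav1 UMIs was not tested. Nor was the part of endothelial RNA in the Fabp4 UMIs of CMs without endothelial genes.

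**Figure D5:**
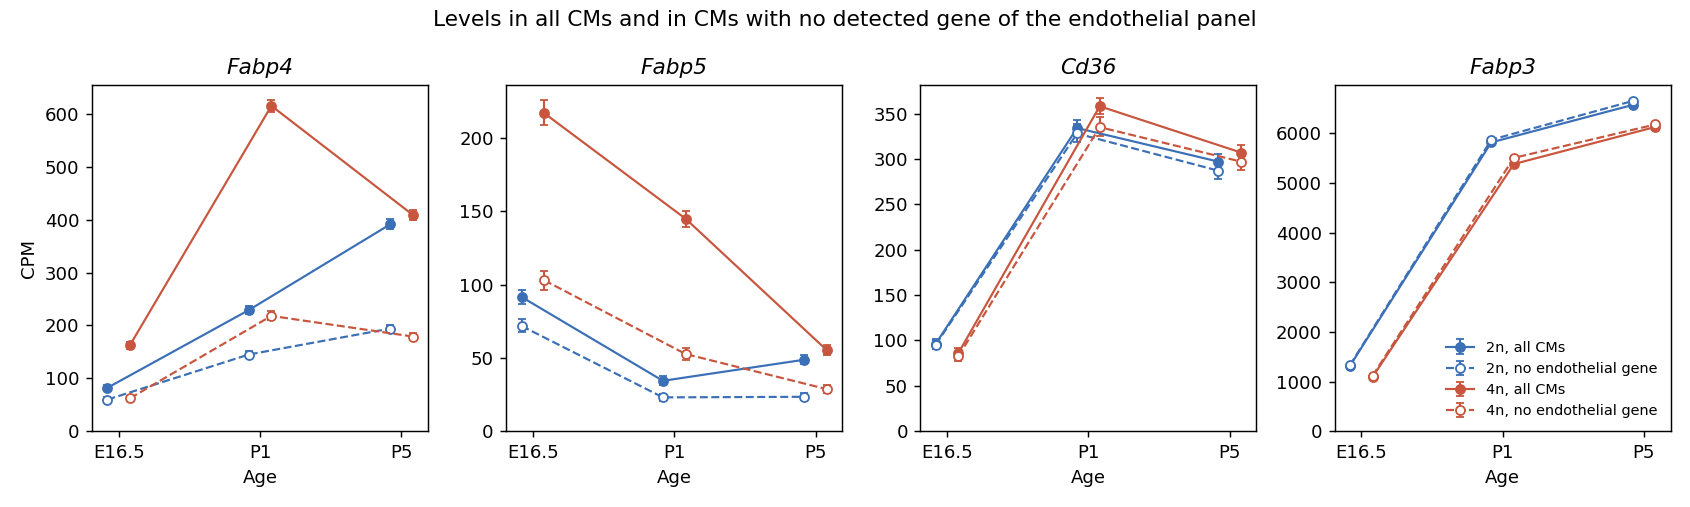
CPM (y axes, linear, from 0) of Fabp4, Fabp5, Cd36 and Fabp3 by age in 2n (blue) and 4n CMs (red), for all CMs (filled, solid lines) and for CMs with no detected gene of the endothelial panel (open, dashed lines), with exact Poisson intervals. The dashed lines of Fabp4 lie at 59.8 to 218 CPM against 82.1 to 615 for the solid ones, and those of Cd36 and Fabp3 lie close to the solid lines.

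Fabp4 and Fabp5 were also higher in CMs with fibroblast or mural RNA. In CMs with at least 2 fibroblast genes, Fabp4 was higher by 0.59 (E16.5-4n) to 2.85 (P5-2n) and Fabp5 by 0.82 (P1-4n) to 2.97 (P1-2n), and in CMs with at least 2 of 6 mural genes by 0.85 (P1-4n) to 2.86 (P1-2n) and 0.72 (P1-4n) to 2.81 (P1-2n). Cd36 differed there by -0.30 to 0.25. In CMs with at least 2 erythroid genes, Fabp4 was higher by 1.07 to 1.69 and Fabp5 by 0.38 to 1.59. In CMs with at least 2 macrophage genes, compared in the E16.5-4n and P1-4n libraries, Fabp4 differed by 0.08 (-0.50 to 0.61) and 0.75 (0.62 to 0.87) and Fabp5 by 0.51 (0.08 to 0.90) and 0.19 (-0.12 to 0.49). With at least 2 epicardial genes, Fabp4 differed by -0.67 (-1.89 to 0.31) and 0.58 (0.35 to 0.80) and Fabp5 by 0.72 (0.13 to 1.26) and 0.74 (0.27 to 1.18). Over all 6 libraries, Fabp4 and Fabp5 UMIs met in 1.49 to 2.39 times as many CMs at 1000 UMIs as independent shares would give, against 0.987 to 1.12 for Cd36 with Lpl. The variance of UMIs per CM over their mean was 3 to 7.2 for Fabp4, 1.65 to 2.45 for Fabp5, and 0.993 to 1.08 for Cd36, where independent counts would give a value of 1.

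The genes that ran highest in CMs with a UMI of each gene, at 1000 UMIs per CM, were the top 5 of 866 to 8958 genes considered. For Fabp4 these were Adgrf5 (11.3-fold, the geometric mean over 6 libraries), Cd93, Gpihbp1, Ets1 and Cav1 (8.13-fold), and for Fabp5 Npr3 (14.9-fold), Eng, Tgfbi, Ednrb and Mmrn2 (11.9-fold), of which Cd93 and Eng are in the endothelial panel. For Cd36 they were Gpihbp1 (3.26-fold), which holds lipoprotein lipase at the capillary wall, Cd93, Cav1, Tmem88 and Plxnd1 (1.95-fold). For Fabp3 they were Coro6 (2.28-fold), Pxmp2, the CM kinase Tnni3k, Yipf7 and Acads (1.8-fold), an acyl-CoA dehydrogenase of short chains. These folds rest on few CMs without Fabp3 after birth, 50 (P5-2n) to 110 (P1-4n) per library. They varied between libraries, such as from 0.13 to 2.74 on the log2 scale for Tnni3k. For the other 6 genes no fold was above 2.25, that of Wipf2 with Lpl.

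Across the 6 libraries, the genes most like Fabp3 in log2(CPM + 1) were Cidea, a lipid droplet protein, Myom2 and Ndufb11 (Pearson r 0.999 to 1.000, a description over 6 libraries that fall into E16.5 and later ones). For Acsl1 they were Ech1, an enzyme of fatty acid oxidation, Agpat3 and Ptp4a3, for Lpl Ndufs7, Decr1 and Cox4i1, for Slc27a1 Hadha, Fuca2 and Emilin2, and for Dgat2 Pink1, Lrrc39 and Eci2 (r 0.987 to 1.000). For Cd36 they were the mitochondrial genes mt-Nd1 and mt-Atp6, and Rbm20 (0.993 to 0.996), and for Acsl3 Ddit3, Kdelr1 and Mrpl24 (0.993 to 0.996). The patterns of Fabp5 (Id3, Ptn and S100a10, 0.974 to 0.987), Fabp4 (Hspg2, Chmp4b and Nrep, 0.947 to 0.972) and Acsl4 (Kif13a and Polr2k, 0.969 and 0.909) were shared less closely.

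CMs with RNA of at least 2 of 20 cycling genes differed in carriers and synthetases. They made up 24.4, 60.4, 3.46, 14.4, 15.1 and 47% of CMs, more in 4n than in 2n CMs at each age, and had more UMIs than the others. Acsl3 was higher in them at P5, by 0.59 (0.27 to 0.90) in 2n and 0.81 (0.55 to 1.07) in 4n CMs, and by 0.06 to 0.28 in the other 4 libraries. Fabp3 was lower by 0.14 to 0.32 (log2 -0.32 in P5-4n) and Lpl by 0.18 to 0.43 (log2 -0.43 in E16.5-4n), where the summed CM markers differed by -0.29 to -0.14. Slc27a1, Dgat2 and Acsl1 were also lower in cycling CMs in all 6 libraries, though some intervals held 0. Slc27a1 differed by -1.24 (E16.5-4n, -1.91 to -0.56) to -0.16 (E16.5-2n). Dgat2 differed by -0.72 (E16.5-2n, -1.26 to -0.21) to -0.11 (P5-2n), and Acsl1 by -0.38 (E16.5-4n) to -0.02 (P5-4n). By CPM, Fabp4 was higher in cycling CMs of 5 libraries, most in P5-2n (1.67) and P1-2n (1.63), and lower in E16.5-4n (-0.27). At 1000 UMIs, 7.04, 7.82, 14.5, 31.3, 25.7 and 21.1% of cycling CMs had a Fabp4 UMI, against 5.7, 10.1, 15, 27.5, 20.5 and 23.8% of the others. The share was thus not higher in E16.5-4n, P1-2n or P5-4n. By CPM, Fabp5 differed by 0.46, -0.58, 1.72, 0.60, 1.28 and 0.15 on the log2 scale.

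The rest of the pathway was followed as 55 companion genes in 5 groups. From E16.5 to P1, 7 of the 30 with at least 100 UMIs were at least 2-fold higher and 1 lower in 2n CMs. In 4n CMs 9 of 33 were higher and 2 lower. These were 23.3 and 27.3% higher (2n and 4n), against 1.98 and 2.88% of all genes. Lower were 3.33 and 6.06%, against 12.1 and 11.6% of all genes. The median log2 ratios of the companions were 0.21 and 0.42. Angptl4, a secreted inhibitor of lipoprotein lipase, led in both: 2n CMs held 2.12 CPM at E16.5 and 71.1 at P1 (5.07, 4.56 to 5.63), and 4n CMs 2.37 and 69.8 (4.88, 4.37 to 5.44). Acot1 and Acot2, which cleave acyl-CoA and are near-identical copies whose reads may be split, followed in 2n CMs (42 to 238 CPM and 18.2 to 74.9 CPM), and Acot1 and Lipe, the hormone-sensitive lipase, in 4n CMs (2.30 and 2.07).

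Of 12 lipase system genes, 3 were at least 2-fold higher in 2n and 5 in 4n CMs (1.98 and 2.88% of all genes). In each ploidy 4 of the 12 were under 100 UMIs. Of 12 other transporters and receptors, 0 were higher and 0 lower in either ploidy, with 7 (2n) and 5 (4n) under 100 UMIs. Of 12 glycerolipid synthesis genes, 2 were higher and 0 lower in each ploidy, with 4 under 100 UMIs. The share of all genes that were lower was 12.1% in 2n and 11.6% in 4n CMs. Of the 12 other synthetases and acyl-CoA binding or cleaving genes, 2 were higher in each ploidy and 1 lower, Acsl5 (-1.60 in 2n and -1.31 in 4n CMs). The lowest ratios after Acsl5 were those of Lpin2 (-0.77) and Lmf1 (-0.73) in 2n CMs, and of Fabp7 (-1.11) and Lpin2 (-0.85) in 4n CMs. Of 7 FABP relatives all were under 100 UMIs in 2n CMs and all but Fabp7 in 4n CMs, and Fabp2, Fabp6, Fabp9 and Pmp2 had 0 UMIs in all 6 libraries. From P1 to P5, 2 companions were at least 2-fold higher and 4 lower in 2n CMs (of 31). In 4n CMs 0 were higher and 4 lower (of 32). Of all genes, 3.02 (2n) and 2.4% (4n) were at least 2-fold higher and 1.98 and 5.85% lower. Angptl4 was among the lower companions in both ploidies (-1.28 and -1.01).

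Between ploidies, the companions past 2-fold at E16.5 were Fabp7 (2.13), Cav1 (1.42), Gpihbp1 (2.3-fold), Apoe (1.15) and Lrp1 (1.02), all higher in 4n CMs on the log2 scale unless given as a fold, 5 of 30 (4.64% of all genes were higher). At P1 they were Lrp1 (2.14), Cav1 (2.00), Cav2 (1.88) and Gpihbp1 (2.84-fold), 4 of 32 (5.23% of all genes), and at P5 Acsl5 alone (1.27), 1 of 31 (1.87% of all genes). The summed endothelial panel was 55.9 CPM in 2n and 252 in 4n CMs at E16.5, then 58.5 and 258 at P1, then 116 and 126 at P5, and the fibroblast panel 133 and 796, 142 and 947, and 263 and 359.9 CPM. Their part in the differences between 4n and 2n CMs was not tested beyond the levels given above.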

How the data were processed

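The authors dissociated left ventricles, fixed and sorted cells, pooled cells of 3 sorts per library, prepared droplet libraries of transcript 3′ ends and counted reads with Cell Ranger and STAR against GRCm38. The deposited values are raw, whole-number counts of UMIs for called cells, and no normalization had been applied. Their table of fold changes and p-values between phases and a list of symbols were not used. The age field of E16.5-4n reads 16.6 where its title gives E16.5, and the title was followed.

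Counts were read with Python 3.11.15, NumPy 2.4.6, SciPy 1.17.1 and pandas 2.3.3. Symbols were matched to gene IDs (Gpat3 and Apoc2 by ID), and positions came from GENCODE M21. CMs had at least 1 UMI of each of 4 markers. UMIs were summed over CMs and divided by their total, times 1000000. Ratios were computed without a pseudocount, for genes with at least 100 UMIs in both libraries together, and a 2-fold difference was counted. This minimum was not applied to single ratios under the alternatives or between classes of CMs. Shares were taken after thinning each CM once to 1000 UMIs, which left out 0 to 700 CMs per library. No doublet caller was run. The 5% of CMs with most UMIs were left out as an alternative. Total UMIs per library were 13213992 to 19714177, and with 1 library per condition no p-value was computed. The ratio and thinning steps were tested on simulated data. Fabp3-ps1 was aligned to the Fabp3 transcript with Biopython 1.88. Named companions were the 3 most increased and 3 most decreased from E16.5 to P1 in each ploidy and those past 2-fold between ploidies. Like genes were the 3 of highest r among genes of at least 50 CPM, and co-detected genes the 5 of highest mean fold with at least 50 UMIs, of which 1 like gene of Acsl4 is not reported here. The genes, lists and alternatives were chosen with earlier results of these data known.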

Additional observations from a re-analysis of the deposited data

Results flagged for a closer look

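Fabp4 and Fabp5 differed in opposite directions from P1 to P5 in the 2 ploidies. Fabp4 was higher at P5 in 2n CMs (0.77, 0.71 to 0.83) and lower in 4n CMs (-0.59, -0.63 to -0.55), and Fabp5 was higher in 2n CMs (0.50, 0.35 to 0.66) and lower in 4n CMs (-1.39, -1.50 to -1.29). The difference between ploidies was not tested, since each ploidy had 1 library per age. CMs with a UMI of Kdr or Cdh5 made up 1.99% of P1-2n, 5.94% of P5-2n, 12.1% of P1-4n and 8.89% of P5-4n CMs. These shares are unthinned and depend on depth, with medians of 1831, 3759, 3187 and 4658 UMIs per CM. At 1000 UMIs, CMs with at least 2 endothelial genes made up 0.497, 1.34, 4.76 and 2.52% in the same order. Their part in these differences was not tested. In CMs with no detected gene of the endothelial panel the P5 over P1 values were 0.42 and -0.29 for Fabp4 and 0.03 (-0.19 to 0.25) and -0.88 for Fabp5. In CMs with under 2 genes of each of 5 panels, which left 14.1 to 57.5% of CMs, Fabp4 in 4n CMs was 0.27 and Fabp5 in 2n CMs -0.07. Cd36 was lower in 4n than in 2n CMs at E16.5 (-0.16, -0.28 to -0.05) and higher at P1 (0.10, 0.05 to 0.15), a difference that was not tested and that changed sign at P1 (-0.03) with median-of-ratios scaling.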

How the results depend on the processing

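Each condition had 1 library and the labels carry no replicate numbers. A fit of ploidy paired by age was not run. No log2 ratio of the 10 genes that was at least 2-fold changed direction under an alternative, and the count of genes at least 2-fold higher at P1 was 7 in both ploidies under each. Median-of-ratios scaling moved the median of all genes at P1 over E16.5 from -0.34 to 0.01 in 2n and from -0.30 to 0.03 in 4n CMs, and turned 2 small ratios whose intervals did not hold 0, Cd36 of P1-4n over P1-2n (0.10 to -0.03) and Acsl1 of P5-2n over P1-2n (-0.10 to 0.01). Keeping only CMs with under 2 genes of each of 5 panels (endothelial, fibroblast, macrophage, mural and erythroid) turned Fabp4 of P5-4n over P1-4n (-0.59 to 0.27), Fabp5 of P5-2n over P1-2n (0.50 to -0.07) and Acsl4 of P5-4n over P1-4n (-0.29 to 0.31), and CMs without endothelial genes Fabp4 of P5-4n over P5-2n (0.06 to -0.12). Lpl of P5-4n over P1-4n (0.10) also changed sign under the 5 panels, and Fabp4 of P5-4n over P5-2n (0.06) with all deposited cells. Both were then 0.00 after rounding. Of Acsl4, at most 77 (P1-4n) and 65 UMIs (P5-4n) were left under the 5 panels. The cause of these changes was not tested.

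Counts between ploidies differed with the CMs kept. The share of all genes past 2-fold was not computed under the filters below. Of the 5 panels, the erythroid one alone had at least 2 genes in 42 (P1-2n) to 84.1% (E16.5-4n) of CMs. Of the 10 genes, 1 was at least 2-fold higher in 4n CMs at E16.5 and 2 at P1. Under the 5 panels (14.1 to 57.5% of CMs) both counts were 0, without endothelial genes (added after seeing the data) 0 and 1, and without Kdr or Cdh5 the P1 count was 1. The E16.5 count was 2 with at least 2 UMIs of each CM marker, without the 5% of CMs with most UMIs, with CMs of at least 2000 UMIs, and at 1.5-fold. The P1-4n over P1-2n value of Fabp4 was 0.98 without Kdr or Cdh5 and 0.43 under the 5 panels, and that of Fabp5 0.81 under the 5 panels.

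Genes lower at P5 than at P1 numbered 2 in place of 1 in 2n CMs with the mean over CMs of CPM, under the 5 panels and at 1.5-fold, and in 4n CMs 2 under the 5 panels and when thinned, and 4 at 1.5-fold. Under the 5 panels the 2 genes in 4n CMs were Acsl3 (-1.04) and Dgat2 (-1.07), and Fabp5 was at -0.72, whereas thinned they were Fabp5 (-1.11) and Acsl3 (-1.17). The largest shift was that of Slc27a1 in E16.5-4n over E16.5-2n, from -0.46 to -2.48 under the 5 panels. At most 4 (E16.5-4n) and 21 Slc27a1 UMIs (E16.5-2n) were left there, so that this value carries large counting error. At 1.5-fold 1 was higher in 2n CMs. Genes lower at P1 in 4n CMs numbered 1 in place of 0 under the 5 panels and at 1.5-fold.

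Companion counts at 1.5-fold were 12 higher and 3 lower at P1 in 2n CMs, 5 lower at P1 in 4n CMs, 5 higher at P5 in 2n CMs, 1 higher and 7 lower at P5 in 4n CMs, and 2 higher in P5-4n over P5-2n. The share of all genes was computed at 2-fold in the main setting only. Counts at 1.5-fold or under another alternative, here and above, thus have no background. Companions lower at P1 in 4n CMs were 0 with median of ratios, 1 without the 50 most abundant genes and 1 with means over CMs. Companions lower at P5 were 2 with median of ratios in each ploidy, with 1 higher in 4n CMs, and 2 in 4n CMs without the 50 most abundant genes.

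Of 60 ratios with over without Kdr or Cdh5, 48 stayed within their interval with at least 2 endothelial genes and 24 of 58 when thinned. All 60 shares of CMs depended on depth.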

Other observations

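Cells without all 4 CM markers, 24 to 129 per library, held Fabp4 at 799.7 and 779.7 CPM (2n and 4n) at E16.5, then 1569 and 2958 at P1, then 7767 and 5666 at P5 and Fabp5 at 844 and 1211, 288 and 3082, and 838 and 588 CPM, in each library above the level in CMs. Acsl1 was 0 to 296 CPM in them, below the level in CMs in all 6 libraries.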
